A study of Mus musculus with 16 samples.

Results

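The mRNAs of 10 neuropeptide precursors were followed in the DRN (dorsal raphe nucleus), a midbrain structure and the main source of serotonin fibers to the forebrain. The genes were chosen by name from a list (Cartpt, Penk, Pdyn, Tac1, Sst, Npy, Gal, Cck, Trh and Vip) and by no rule on their measured values, though earlier results of these data were known. All 10 were found, each on 1 row, among the 14504 genes of the expression table. PolyA RNA was sequenced from male C57BL/6 mice of 10 to 12 weeks in 6 groups, which gave 16 libraries. Control mice had no defeat stress and were housed alone for 5 days before the experiment, while stressed mice met aggressive CD1 males daily for 30 days and were sorted by their behavior into a passive coping strategy (PS, dep1 in the library names) and an active coping strategy (AS, dep2). At 24 h after the last session the mice were injected with saline or with DEX (dexamethasone, a synthetic glucocorticoid) at 2 mg/kg, and the tissue was taken 6 h later. There were 3 control saline, 3 control DEX, 2 PS saline, 3 PS DEX, 3 AS saline and 2 AS DEX libraries. The DRN was punched from cryosections, so a library can hold neighboring tissue, and the study had removed DRN samples of low Tph2. The study describes further DRN samples that were not analysed here, so the group sizes are those of the libraries used.

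Neuropeptides are made as larger precursor proteins, which convertases such as Pcsk1 and Pcsk2 cut and which are stored in dense core vesicles together with granins. The released peptides act on G protein coupled receptors, often at a distance from the synapse. In and around the DRN they are made by subsets of serotonin, GABA, glutamate and dopamine neurons, so that most of these mRNAs come from a minority of the cells in the tissue. In such bulk samples fewer cells of a type and less RNA per cell cannot be told apart.

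The libraries held 38207157 to 62447298 reads in the listed genes. The serotonin neuron markers were all present. Tph2, the rate-limiting enzyme of brain serotonin synthesis, lay between 91764 and 182191 normalized counts, and the serotonin transporter Slc6a4 between 74627 and 129820. The other serotonin markers were lower, with medians from 3444 (Gata3) to 4401 (Fev). A normalized count is the read count of a gene divided by 1 size factor per library. Of the dopamine neuron markers 4 of 5 were in the table, of the GABA neuron markers 3 of 3 and of the cholinergic motor neuron markers 4 of 5, whereas none of the 4 noradrenergic markers and neither of the 2 markers of the peptidergic Edinger-Westphal neurons was listed. A pair of libraries stood apart in the precursors and is given with and without in what follows. In the PS saline library dep1_sal_68 8 of the 10 precursors were at their lowest of the 16 libraries, and in the control saline library con_sal_114 6 of the 10 were at their highest. Over all 14504 genes the first library was the lowest for 4.47% and the second the highest for 5.65%. Where PS saline mice are compared without dep1_sal_68, the group is left with dep1_sal_62 alone.

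Levels of different genes were compared per kilobase of the longest annotated transcript, as the median over the 16 libraries. Sst, the precursor of the inhibitory peptide somatostatin, came first with 7209 normalized counts per kb, followed by the enkephalin precursor Penk with 2813. Vip, which encodes vasoactive intestinal peptide, had 1254, and Pdyn, the dynorphin precursor, 1029. Trh, the precursor of thyrotropin-releasing hormone, had 929 and Cck, the cholecystokinin precursor, 910. Lower levels were found for Npy (neuropeptide Y, 327 normalized counts per kb), Tac1 (substance P and neurokinin A, 141), Gal (galanin, 121) and Cartpt (cocaine- and amphetamine-regulated transcript, 82.0). Sst thus exceeded 98.0% of all genes on this scale, and Cartpt 15.9%.

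Most neighbors in this order did not differ beyond their spread. Sst exceeded Penk in 15 of 16 libraries, with a mean log2 ratio per kb of 1.20 ± 0.63 (SD), and Cck exceeded Npy in 16 of 16 with 1.53 ± 0.74. For the other 7 neighboring pairs the mean log2 ratio was smaller than its SD, for example 0.31 ± 0.91 for Vip over Pdyn and 0.02 ± 1.86 for Gal over Cartpt. With the length of all exons in place of the longest transcript, Trh passed Pdyn and Gal passed Tac1, both within those unresolved pairs. Penk overlaps the gene A830012C17Rik on the opposite strand, which was not listed in the table, and as the use of strand in the counting is not stated its value is less certain than the others.

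The spread between libraries of the same group was large for most of these genes, which was the clearest feature they shared. It was measured as the residual SD of log2(normalized count + 1) after the 6 group means were removed, and was set beside the 500 genes of the nearest mean level. Vip, with a residual SD of 1.27, lay above all of its 500 comparison genes, whose median was 0.16. Sst (0.60) and Pdyn (0.45) each lay above 99.4%, Cck (1.07) above 99.0% and Cartpt (1.87) above 98.4%. Trh (0.48) lay above 97.8%, Npy (1.002) above 94.4% and Tac1 (0.74) above 93.8%. Penk (0.28) lay above 85.2%, and Gal (0.44) was near the middle at 55.4%. Counting error was small beside this, from 0.02 for Sst to 0.15 for Gal on the log2 scale in the median library.

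**Figure D1:**
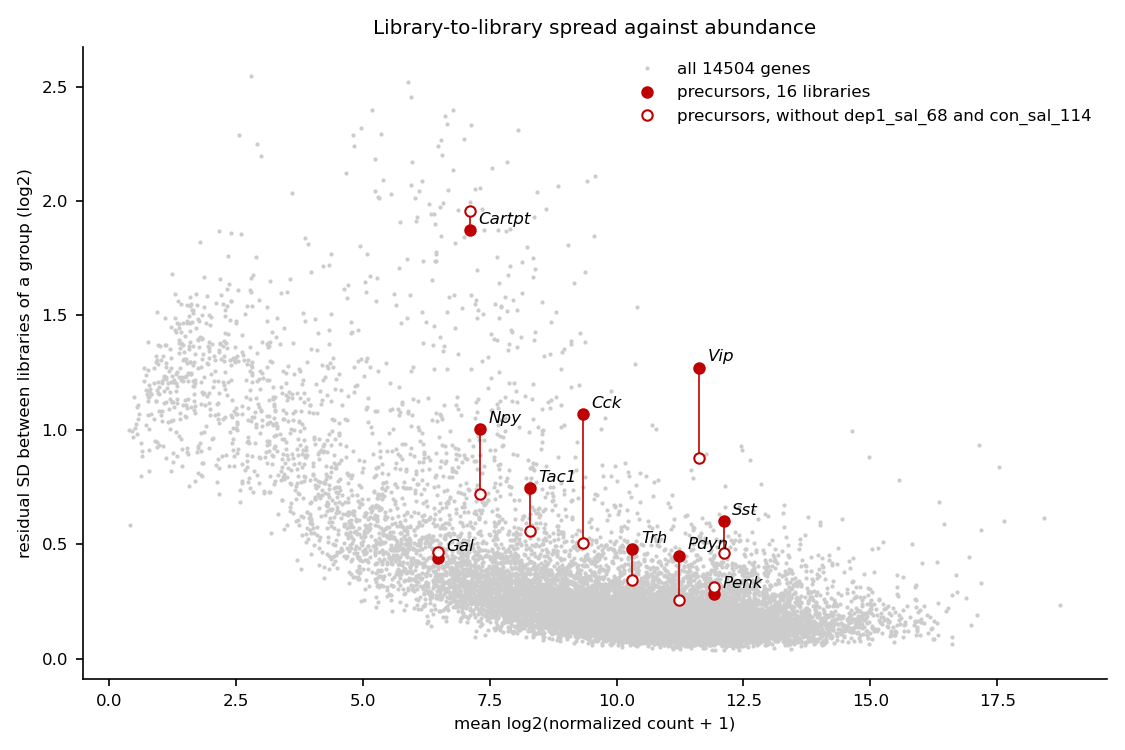
Residual SD between libraries of a group (log2, vertical axis) against the mean log2(normalized count + 1) (horizontal axis). Grey points are all 14504 genes, filled red points the 10 precursors over 16 libraries, and open red points the same precursors without dep1_sal_68 and con_sal_114. Vip drops from 1.27 to 0.88 and Cck from 1.07 to 0.51, while Cartpt goes from 1.87 to 1.96 and Gal lies within the grey band.

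The ranges behind these SDs were wide. Cartpt ran from 19.5 normalized counts (dep1_sal_68) to 2968 (con_dex_101), a 153-fold range, and Vip from 203 to 12198, a 60.0-fold range. Cck spanned 47.2-fold and Npy 24.6-fold, while Sst, Tac1, Trh and Pdyn spanned 6.81-, 6.57-, 4.27- and 4.25-fold. Gal and Penk spanned 2.95- and 2.23-fold. Without dep1_sal_68 and con_sal_114 the range was 6.66-fold for Vip, 3.11-fold for Cck, 4.27-fold for Npy and 1.57-fold for Pdyn. Vip then still lay above all of its comparison genes, Sst above 98.4% and Cck above 96.8%, but Pdyn above 83.4%. For Cartpt the range without them was 60.1-fold and rested on other libraries, con_dex_101 at 2968 and the AS saline library dep2_sal_8 at 1409, against 49.4 to 173 in 12 of the others.

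**Figure D2:**
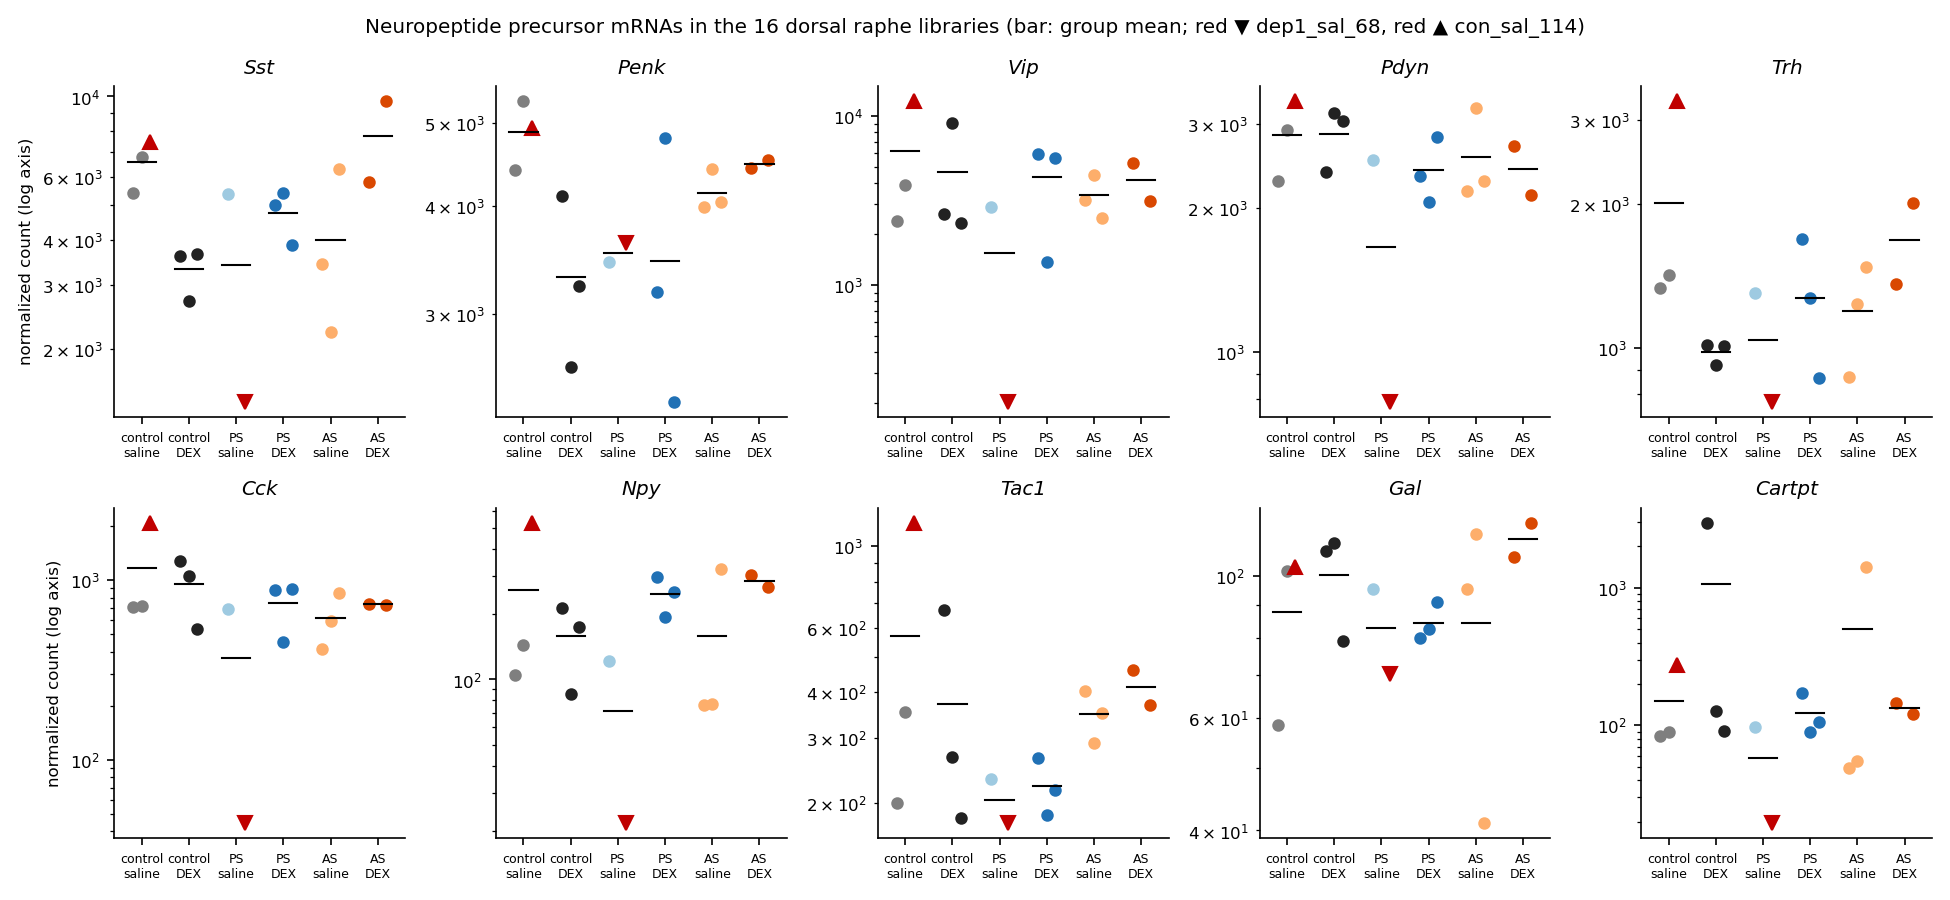
Normalized counts (log axis) of the 10 precursors in each of the 16 libraries, ordered by level per kb; points are libraries, bars are group means, and the red triangles mark dep1_sal_68 (down) and con_sal_114 (up). The first lies at the bottom of 8 panels and the second at the top of 6, whereas Penk and Gal keep within 2.23- and 2.95-fold.

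The question of the DEX comparison in control mice was how the precursors respond to glucocorticoid in unstressed animals. Sst, Trh and Penk were lower in every DEX library than in every saline library, but none of the 10 precursors passed the test (limma, adjusted p under 0.1), against 1.26% of all genes called. By their groups alone, 3 of 10 lay wholly below, where 7.43% of all genes did, and 0 of 10 wholly above, where 8.51% did. The edgeR quasi-likelihood test on the recovered reads called 0 precursors and DESeq2 called 1, Trh. With an unadjusted p under 0.05 there were 3 of 10 (Penk, Sst and Trh) in limma, edgeR and DESeq2, beside 12.1% of all genes in limma.

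Sst had 5408, 6806 and 7494 normalized counts in the control saline libraries and 3620, 2717 and 3653 in the control DEX libraries. The groups did not overlap, and the log2 difference was -0.98 ± 0.42 (SE; 95% interval -1.88 to -0.08; limma, adjusted p = 0.375). It was -0.88 without dep1_sal_68 and con_sal_114 (adjusted p = 0.271), and it passed the threshold only when the control groups were fitted alone (limma, adjusted p = 0.0861).

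Trh had 1335, 1423 and 3284 in control saline and 1014, 922 and 1008 in control DEX. Of the saline libraries con_sal_114 stood far above the other two, which themselves lay above all DEX libraries. The log2 difference was -0.91 ± 0.34 (95% interval -1.64 to -0.18; limma, adjusted p = 0.314). Without con_sal_114 it was -0.49 (adjusted p = 0.425), so that this library carried a large part of the difference, and DESeq2 over all libraries gave -1.04 with an adjusted p of 0.0703.

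Penk had 4402, 5294 and 4931 in control saline and 4109, 2601 and 3227 in control DEX. The log2 difference was -0.58 ± 0.20 (95% interval -1.02 to -0.14; limma, adjusted p = 0.295), and -0.57 without con_sal_114 (adjusted p = 0.25). This was the smallest change of the 3 in size, in the gene with the narrowest spread. The 3 GABA neuron markers summed to 37512 to 52839 normalized counts in control saline and to 35048 to 45076 in control DEX, and their part in this difference was not tested.

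The remaining 7 precursors overlapped between control DEX and control saline. Their log2 differences ran from -0.44 (Tac1 and Npy) to 1.356 (Cartpt), with intervals as wide as -1.45 to 4.16 for Cartpt. Without con_sal_114 the sign turned for Vip (-0.35 to 0.32), Npy (-0.44 to 0.26), Tac1 (-0.44 to 0.26) and Cck (-0.19 to 0.32). The value for Cartpt came from con_dex_101, which had 2968 normalized counts against 128 and 91.7 in the other control DEX libraries. Vip, with 2611, 9115 and 2309 in control DEX against 2389, 3893 and 12198 in control saline, had 1 high library in each group. The median log2 difference of the 10 precursors was -0.39, with 7 negative and 3 positive, beside a median of 0.00 over all genes. Without con_sal_114 the median was 0.26 with 7 positive, and 1 precursor was at an unadjusted p under 0.05.

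In PS mice the question was the same after chronic stress in passive copers. The differences pointed upward for 9 of the 10 precursors, with a median log2 difference of 0.76 beside 0.00 over all genes, yet none was called where 0.703% of all genes were. Npy was the 1 precursor whose DEX libraries all lay above the saline libraries, as 11.2% of all genes did, and 0 of 10 lay wholly below, where 10.1% did. It had 121.7 and 21.6 normalized counts in PS saline and 296, 194 and 255 in PS DEX, a log2 difference of 2.22 ± 0.79 (95% interval 0.52 to 3.92; limma, adjusted p = 0.623). Without dep1_sal_68 it was 1.002 (limma, adjusted p = 1.0). When libraries were weighted by how closely they followed their group means it was 2.39 and passed the threshold (limma, adjusted p = 0.0711). Both PS saline libraries had the same weight, 1.421, so these weights did not set dep1_sal_68 apart from dep1_sal_62. At an unadjusted p under 0.05 there were 3 precursors (Npy, Cck and Vip) in limma, beside 4.69% of all genes, 0 in edgeR and 1 in DESeq2, neither of which called a precursor after adjustment.

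Cck had 694 and 44.3 in PS saline and 879, 451 and 898 in PS DEX. The saline library dep1_sal_62 lay inside the DEX range and dep1_sal_68 far below it. The log2 difference was 2.00 ± 0.83 (limma, adjusted p = 0.923), 0.03 without dep1_sal_68 and 3.97 without dep1_sal_62 (adjusted p = 0.0209), so that the value turned on which saline library was kept.

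Vip and Pdyn also turned on dep1_sal_68. Vip had 2900 and 203 in PS saline against 5968, 1368 and 5657 in PS DEX, with a log2 difference of 2.22 ± 0.99 over all libraries (limma, adjusted p = 1.0) and of 0.31 without dep1_sal_68. Pdyn had 2527 and 787 against 2338, 2059 and 2819, with 0.76 ± 0.36 over all libraries (limma, adjusted p = 1.0) and -0.08 without dep1_sal_68. Without dep1_sal_62 instead, Pdyn gave 1.60 and passed the threshold (limma, adjusted p = 0.0296). Penk, Tac1 and Gal differed by -0.09, 0.12 and 0.04. The upward direction over the precursors rested on the same library, since without dep1_sal_68 4 of 10 differences were positive, the median was -0.07 and 0 had an unadjusted p under 0.05 (limma).

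In AS mice 8 of 10 differences were positive with a median of 0.31 (all genes, -0.01), and again none was called, where 0.689% of all genes were. In limma 1 precursor, Sst, reached an unadjusted p under 0.05 beside 9.36% of all genes, and in edgeR and DESeq2 0 did. Sst had 3440, 2226 and 6308 in AS saline and 5804 and 9700 in AS DEX. The groups overlapped, and the log2 difference of 1.04 ± 0.47 (95% interval 0.03 to 2.05) had an adjusted p of 0.526 (limma). Penk was the only precursor whose AS DEX libraries, at 4423 and 4530, all lay above those of AS saline, at 3985, 4411 and 4044, as 15.1% of all genes did, and 0 of 10 lay wholly below, where 14.8% did. The gap between the nearest libraries was narrow, and the log2 difference was 0.11 ± 0.23 (limma, adjusted p = 0.852).

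Averaged over the 3 phenotypes, DEX changed 4.31% of all genes at the threshold and 0 of the 10 precursors (limma, edgeR and DESeq2). Npy had the lowest adjusted p, with a log2 difference of 0.99 ± 0.44 (95% interval 0.04 to 1.94; limma, adjusted p = 0.335), and was the 1 precursor with an unadjusted p under 0.05, beside 14% of all genes (edgeR and DESeq2, 0). Library weights raised this to 1.32 with an adjusted p of 0.0668, while without dep1_sal_68 it was 0.59 and no precursor was at an unadjusted p under 0.05. The median over the 10 precursors was 0.27 with all libraries and 0.004 without dep1_sal_68. The other averaged differences ran from -0.19 ± 0.13 for Penk to 0.84 ± 0.81 for Cartpt. For Penk the interval, -0.46 to 0.09, was the narrowest of the 10.

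**Figure D3:**
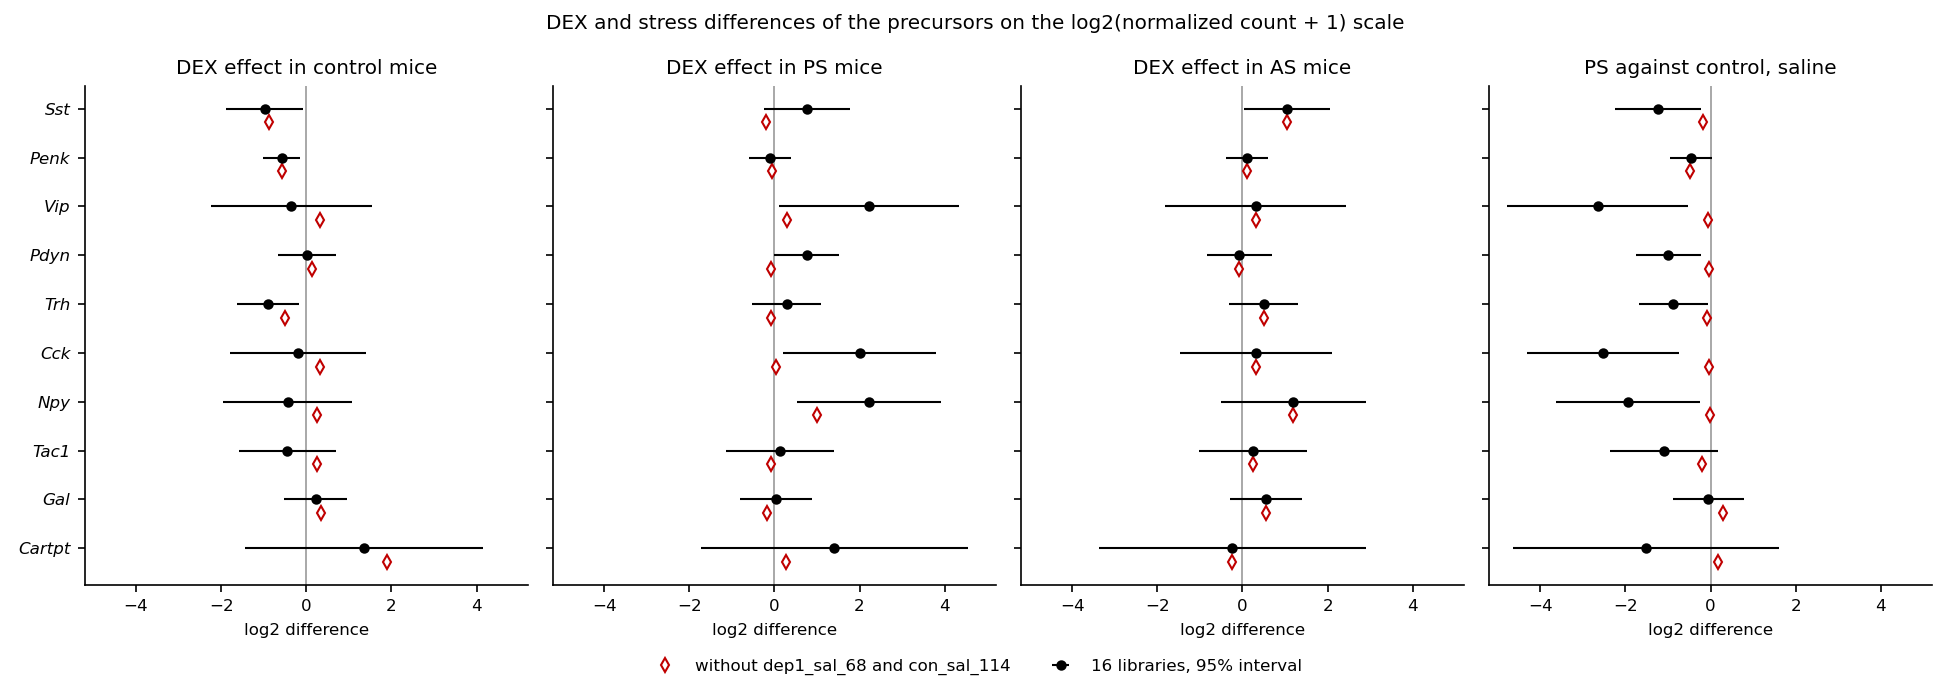
Log2 differences of the 10 precursors (horizontal axis) for DEX in control, PS and AS mice and for PS against control under saline. Black points and bars are the limma estimates with 95% intervals over 16 libraries, and open red diamonds are the estimates without dep1_sal_68 and con_sal_114. In the last panel all 10 black points are below 0, while the diamonds lie between -0.49 and 0.30.

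The stress comparison under saline asked whether the precursors differ between coping phenotypes at baseline. PS mice were below control mice for 10 of 10 precursors, with a median log2 difference of -1.17 (all genes, 0.01), but no precursor was called, and no gene at all (0% of 14504). In limma 6 of 10 had an unadjusted p under 0.05 (Pdyn, Sst, Npy, Cck, Trh and Vip), beside 7.67% of all genes, and 4 of 10 in edgeR and in DESeq2, which called 0. Penk, Sst, Cck and Trh were wholly below control, as 14.2% of all genes were, and 0 of 10 wholly above, where 14.3% were.

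The size of these differences rested on dep1_sal_68 and con_sal_114. Without dep1_sal_68 the median was -0.50 and 0 of 10 had an unadjusted p under 0.05, and without both libraries the median was -0.06 with 2 of 10 positive. Vip differed by -2.65 ± 0.99 (95% interval -4.77 to -0.53; limma, adjusted p = 0.571) over all libraries, by -0.74 without dep1_sal_68, and by -0.07 without both. Cck differed by -2.53 ± 0.83 (adjusted p = 0.571), by -0.56 and by -0.05, and Npy by -1.94 ± 0.79 (adjusted p = 0.571), by -0.72 and by -0.02. In dep1_sal_62 the levels were 2900 for Vip, 694 for Cck and 121.7 for Npy, inside or next to the range of the control saline libraries con_sal_102 and con_sal_104 (2389 and 3893, 711 and 723, and 105 and 145). Penk was the exception among the precursors, with -0.46 ± 0.23 over all libraries (adjusted p = 0.571) and -0.49 without both.

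When dep1_sal_62 was left out, so that dep1_sal_68 alone stood for PS saline, Cck (-4.50, adjusted p = 0.0381) and Pdyn (-1.84, adjusted p = 0.0486) passed the threshold in limma. The spread of that lone library is then assumed to be that of the other groups. The dopamine neuron marker score, the mean log2 deviation of Th, Slc6a3, Nr4a2 and Aldh1a1, was lowest in dep1_sal_68 at -1.005 and reached 0.41 in con_sal_114. The cholinergic motor neuron score was highest in dep1_sal_68 at 1.85 and lowest in con_sal_114 at -2.56. With the dopamine score as a covariate the PS difference was -1.05 for Cck and -1.53 for Vip. Summed, the 4 dopamine markers ran from 7170 to 9669 normalized counts in control saline and from 5181 to 7121 in PS saline. Aldh1a1 made up a large part of these sums and did not follow the score, with 4015 in dep1_sal_68 and 3771 in con_sal_114. Th, Slc6a3 and Nr4a2 were lower in dep1_sal_68 than in con_sal_114. Chat, Slc5a7 and Slc18a3 set the direction of the motor neuron score, and Prph, the other marker in it, went the opposite way. Chat had 20.3 normalized counts in con_sal_114, its lowest, and 2150 in dep1_sal_68, its highest, and Slc5a7 had 58.1 and 4745, whereas Prph had 1923 and 630. The part of these cells in the differences was not tested.

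AS mice under saline differed from controls by -0.84 (Sst) to 0.30 (Cartpt), with 9 of 10 negative, 0% of all genes called, and no precursor called or at an unadjusted p under 0.05 in limma (2.39% of all genes; edgeR and DESeq2, 1 each). The value for Cartpt came from dep2_sal_8 and was -1.28 without it, and without con_sal_114 4 of 10 were positive and the median went from -0.45 to -0.02. None lay wholly above or below control, where 2.38% and 2.11% of all genes did. AS against PS gave 9 of 10 positive differences, again with 0% of all genes and 0 precursors called, and with Pdyn (0.84 ± 0.36; limma, adjusted p = 0.728) at an unadjusted p under 0.05, which 3.41% of all genes reached and, in edgeR and DESeq2, 0 precursors. Without dep1_sal_68 5 of 10 were positive, the median went from 0.80 to 0.01, Pdyn was at -0.0015 and 0 of 10 had an unadjusted p under 0.05. Tac1 and Penk were wholly higher in AS than in PS saline, where 11% of all genes were, and 0 of 10 were wholly lower, where 12.7% were. Tac1 had 233 and 176 in PS saline and 403, 291 and 351 in AS saline, a log2 difference of 0.77 ± 0.59 (limma, adjusted p = 0.728).

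Averaged over both treatments, PS was below control for 10 of 10 precursors (median -0.62), with 0% of all genes and 0 precursors called. At an unadjusted p under 0.05 there were 2, Pdyn and Cck, beside 6.48% of all genes and 2 each in edgeR and DESeq2. Without dep1_sal_68 there were 0, the median was -0.22 with 2 of 10 positive, and Cck went from -1.43 to -0.45 and Pdyn from -0.62 to -0.20. Without con_sal_114 as well, these were -0.19 and -0.14, and 4 of 10 were positive. AS against control (0.0138% of all genes called) and AS against PS (0%) each had 0 precursors called in limma, edgeR and DESeq2. At an unadjusted p under 0.05 limma had 0 in both, beside 2.1% and 1.91% of all genes, edgeR 0 in both, and DESeq2 0 and 1. For AS against PS the median was 0.63 with 10 of 10 positive, and 0.13 with 9 of 10 without dep1_sal_68. These averages share the saline libraries of the comparison above.

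The DEX effects themselves were then compared between phenotypes. No precursor and no gene (0%) was called by limma in any of the 3 interactions, and no precursor by edgeR or DESeq2. The DEX effect on Sst was higher in AS than in control mice by 2.02 ± 0.63 (95% interval 0.67 to 3.38; limma, adjusted p = 0.941) and in PS than in control mice by 1.75 ± 0.63 (limma, adjusted p = 1.0). Trh gave 1.41 ± 0.51 and 1.20 ± 0.51 in the same contrasts, and Penk 0.69 ± 0.31 and 0.48 ± 0.31. At an unadjusted p under 0.05 there were 3 of 10 in AS minus control (Penk, Sst and Trh; 4.02% of all genes), 3 of 10 in PS minus control (Sst, Npy and Trh; 2.1% of all genes) and 0 of 10 in AS minus PS (2.9%), with 3, 3 and 0 in both edgeR and DESeq2. The PS minus control values rested on dep1_sal_68, without which Sst went from 1.75 to 0.79, Trh from 1.20 to 0.82 and Npy from 2.66 to 1.44, and 0 of 10 had an unadjusted p under 0.05. Without con_sal_114 as well, they were 0.69, 0.40 and 0.74. Without both libraries the AS minus control value was 1.92 for Sst, 0.99 for Trh and 0.68 for Penk, and 2 of 10 had an unadjusted p under 0.05. The control saline libraries enter both of the first 2 contrasts, so these are not separate observations.

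The library-to-library variation was shared between many precursors over all 16 libraries, and much of this rested on dep1_sal_68 and con_sal_114. Of the 45 pairs 41 had a positive Pearson r of log2(normalized count + 1) over the 16 libraries. The median r was 0.43, and it was also 0.43 once the group means were removed, both with dep1_sal_68 and con_sal_114 included. After Benjamini-Hochberg adjustment over the 45 pairs 6 pairs passed 0.05 in both the Pearson and the Spearman permutation tests. They joined Vip, Pdyn, Cck, Npy, Sst and Trh, and none involved Penk, Gal, Tac1 or Cartpt. Without dep1_sal_68 and con_sal_114 r in these 6 pairs was 0.35 to 0.75. Many of the other pairs then turned negative, such as Pdyn and Sst (r from 0.42 to -0.58), Pdyn and Trh (0.36 to -0.38) and Npy and Vip (0.64 to -0.09). The positive r of Sst and Cck was lost as well (0.62 to 0.0001).

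Vip, Cck and Pdyn formed the closest set. Vip and Pdyn had r = 0.90 (permutation test, adjusted p = 0.00472) and rho = 0.65 (adjusted p = 0.0466), and Vip and Cck r = 0.89 (adjusted p = 0.00472) and rho = 0.66 (adjusted p = 0.0422). Without the 2 libraries farthest from the median, dep1_sal_68 and con_sal_114, r fell to 0.58 and 0.48. Cck and Pdyn had r = 0.87 (permutation test, adjusted p = 0.0263) but rho = 0.48 (adjusted p = 0.165), and r was 0.19 without those libraries, so that this relation rested on them. Npy and Cck went from 0.79 to 0.35 in the same way. Sst and Npy had r = 0.79 (permutation test, adjusted p = 0.00555) and 0.56 without dep1_sal_68 and dep2_sal_40.

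In the next 3 pairs r was higher without the libraries farthest from the median. Sst and Trh had r = 0.75 (permutation test, adjusted p = 0.00756) and rho = 0.85 (adjusted p = 0.00157), and r = 0.82 without dep1_sal_68 and dep2_sal_40, the libraries farthest from the median of Sst. Cartpt and Cck had r = 0.63 (adjusted p = 0.0993) and rho = 0.87 (adjusted p = 0.0009), and r = 0.91 without con_dex_101 and dep2_sal_8, in which Cartpt was far above the line of the others. Cartpt and Npy likewise had r = 0.63 (permutation test, adjusted p = 0.0695), rho = 0.82 (adjusted p = 0.0042) and r = 0.91. Those 2 values of 0.91 keep dep1_sal_68 and con_sal_114. Without dep1_sal_68 and con_sal_114 instead, r was 0.75 for Sst and Trh, 0.68 for Cartpt and Cck and 0.52 for Cartpt and Npy.

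**Figure D4:**
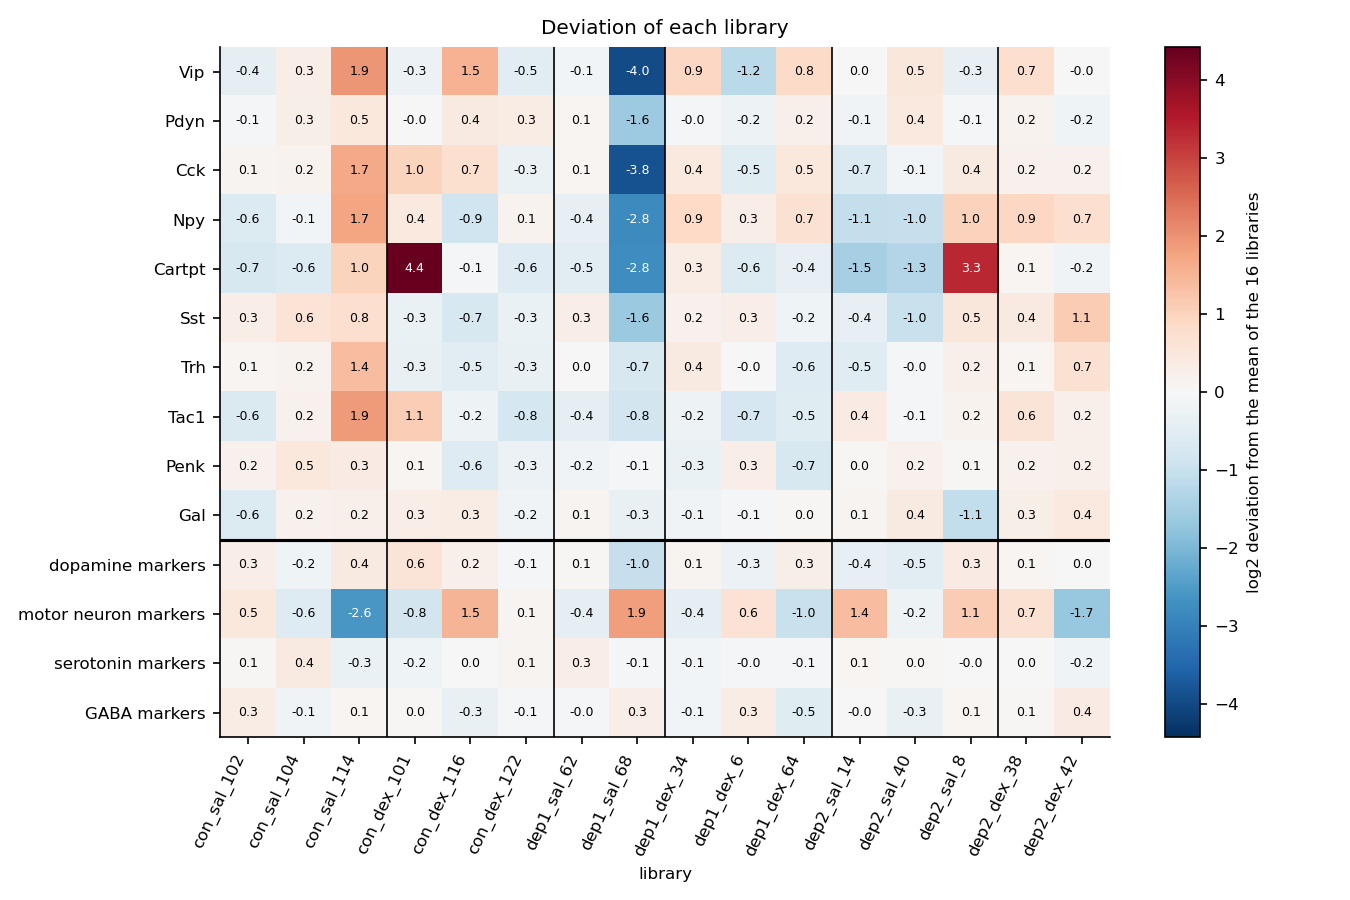
Log2 deviation of each library (columns, by group) from the mean of the 16 libraries for the 10 precursors and for 4 marker scores (rows; color and printed value). In dep1_sal_68 Vip is at -3.95, Cck at -3.84, Npy at -2.82, Cartpt at -2.76 and the dopamine score at -1.005, while con_sal_114 is high in most precursors; Penk and Gal vary less.

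The marker scores of neuron types were set beside the precursors over the same 16 libraries, 40 relations in all. The dopamine score went with Cck at r = 0.88 (permutation test, adjusted p = 0.0004; rho = 0.86, adjusted p = 0.0016) and with Cartpt at r = 0.79 (adjusted p = 0.0112; rho = 0.82, adjusted p = 0.0062). Without the 2 farthest libraries, dep1_sal_68 and dep2_sal_40, r was 0.83 and 0.75, and with the group means removed 0.84 and 0.79. Npy had r = 0.76 with this score (permutation test, adjusted p = 0.0161), but rho = 0.63 (adjusted p = 0.101) and r = 0.44 without those libraries. Vip, which some dopamine neurons of this region express, had r = 0.66 (permutation test, adjusted p = 0.0609; rho = 0.32, adjusted p = 0.38) and 0.35 without them. Without dep1_sal_68 and con_sal_114 instead, r with the dopamine score was 0.83 for Cck, 0.75 for Cartpt, 0.47 for Npy and 0.11 for Vip.

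Trh went against the motor neuron score, at r = -0.70 (permutation test, adjusted p = 0.028) with rho = -0.47 (adjusted p = 0.211) and -0.38 without dep1_sal_68 and con_sal_114, and so rested on those libraries. Penk had r = 0.61 with the GABA score (permutation test, adjusted p = 0.0609; rho = 0.52, adjusted p = 0.181) and 0.40 without dep1_dex_64 and dep2_dex_42. Pdyn and Vip went against the GABA score, at r = -0.56 (permutation test, adjusted p = 0.0806) and -0.54 (adjusted p = 0.0935). Their rho was -0.65 (adjusted p = 0.0949) and -0.53 (adjusted p = 0.181). Without dep1_sal_68 and con_sal_114 r with this score was 0.66 for Penk, -0.77 for Pdyn and -0.71 for Vip. For Sst and Trh it was then 0.65 and 0.55, from 0.30 for each over the 16 libraries. No relation with the serotonin score passed after adjustment. Its range, from -0.28 in con_sal_114 to 0.40 in con_sal_104, was narrow.

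Of all genes, those most like Cck over the 16 libraries were Otx2, a midbrain transcription factor (r = 0.95), Th, the rate-limiting enzyme of dopamine synthesis (0.94), and the neurotrophic receptor gene Ret (0.91). These are descriptions without a test. Without dep1_sal_68 and con_sal_114 their r with Cck was 0.71, 0.82 and 0.62. In dep1_sal_68 Th stood at 741, Otx2 at 91.9 and Cck at 44.3 normalized counts, each its lowest, and in con_sal_114 at 4527, 1307 and 2091, each its highest.

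For Vip the nearest genes were Calb1 (r = 0.91), Pdyn (0.90) and Cck (0.89), and for Pdyn they were Hacd4 (0.90), Vip (0.90) and Gm5868 (0.88). Without the same 2 libraries r was 0.62, 0.58 and 0.48 for Vip and 0.63, 0.58 and 0.61 for Pdyn, so that the high values rested on them. Sst was nearest to the transcription factor gene Emx2 (0.89), which had 4.33 normalized counts in dep1_sal_68 and 23.8 in dep2_sal_40, the 2 libraries where Sst was lowest, against 87.7 to 404 in the others. It was followed by Icam5 (0.87) and Rap2b (0.86). Npy was nearest to other peptide genes, Npw (0.89) and Grp (0.87), and to Sulf1 (0.86), which without those libraries had r of 0.79, 0.62 and 0.73. For the 3 genes nearest to Sst r was then 0.84 to 0.88.

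Cartpt was nearest to C1ql3 (0.85), Foxp2 (0.83) and AF357341 (0.81), the last a gene of at most 9.29 normalized counts, and Trh to Car8 (0.88), 4930539E08Rik (0.83) and Shisal2b (0.82). Penk was nearest to Sdr39u1 (0.88), Calb2 (0.87) and Tspan7 (0.87). Tac1 was nearest to Cpe (0.82), the carboxypeptidase that trims peptides after cleavage, then to Slc35d3 (0.77) and C1ql3 (0.77). Gal had the weakest neighbors, A230056P14Rik (0.76), Arfgap3 (0.73) and Npm3 (0.73). Without dep1_sal_68 and con_sal_114 the r of the nearest genes was 0.82 to 0.89 for Cartpt, 0.68 to 0.82 for Trh, 0.87 to 0.91 for Penk, 0.61 to 0.67 for Tac1 and 0.72 to 0.75 for Gal.

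**Figure D5:**
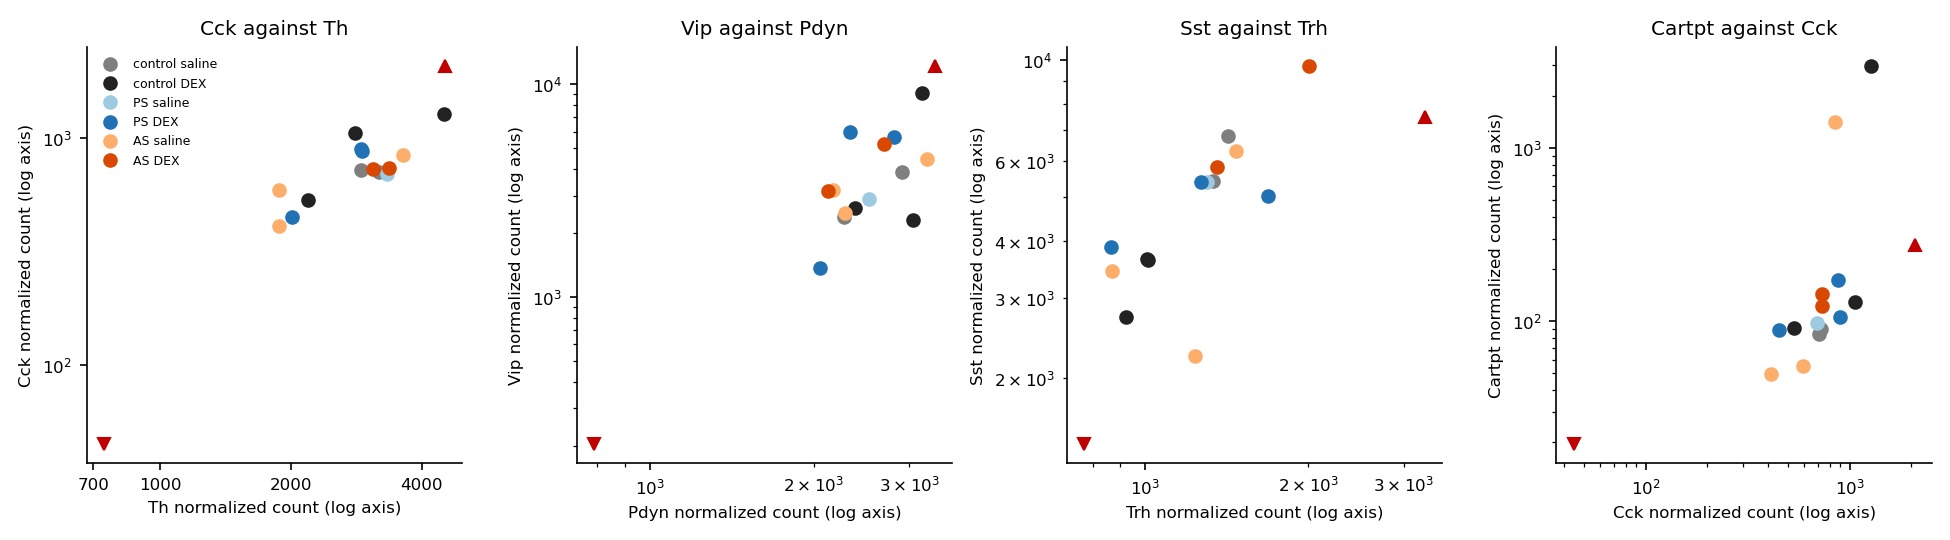
Normalized counts (log axes) of Cck against Th, Vip against Pdyn, Sst against Trh and Cartpt against Cck in the 16 libraries, colored by group, with dep1_sal_68 (red, down) and con_sal_114 (red, up). Cck follows Th over the whole range (r = 0.94), and Cartpt follows Cck except in con_dex_101 (2968) and dep2_sal_8 (1409).

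The promoters of the precursors were also read, and whether a shared element goes with shared variation was not tested. RefSeq windows from 250 bases before to 50 bases after the start site (GRCm38.p6) were held for 9 of the 10 genes, and Penk had none. The cAMP response element in its full form, TGACGTCA, was present in 2 of the 9, Sst and Cartpt, and in 588 of 32851 windows (1.79%). Its core, CGTCA on either strand, which the full form contains, was found in 7 of the 9 and in 20.8% of all windows. The full glucocorticoid response element, AGAACA and TGTTCT around 3 free bases, was in 0 of the 9 and in 3 of all windows (0.00913%), and TATAAA, on either strand, was in 1 of the 9, Vip, and in 13.6%. Pdyn, the precursor closest to Vip in its variation (r = 0.90, and 0.58 without dep1_sal_68 and con_sal_114), had no CGTCA in either of its windows. Vip and Cck (r = 0.89, and 0.48 without those libraries) both hold the core, as 7 of the 9 genes do. Sst and Cartpt are shown for the full element and Vip and Cck for the core, 5′ to 3′ on the strand of the gene. The capitals mark TGACGTCA in the first 2, at positions -48 and -112 from the start site, and CGTCA or its reverse complement in the others, at -79 in Vip and -47 in Cck. The windows are chr16:23890795-23891094 (minus strand), chr13:99900634-99900933 (minus), chr10:5638968-5639267 (plus) and chr9:121495645-121495944 (minus).
Sst: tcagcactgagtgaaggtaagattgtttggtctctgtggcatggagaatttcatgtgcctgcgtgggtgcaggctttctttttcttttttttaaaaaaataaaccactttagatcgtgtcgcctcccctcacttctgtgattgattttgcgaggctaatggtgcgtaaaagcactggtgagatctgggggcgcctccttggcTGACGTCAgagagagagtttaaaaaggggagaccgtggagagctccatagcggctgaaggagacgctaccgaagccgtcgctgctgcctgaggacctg
Cartpt: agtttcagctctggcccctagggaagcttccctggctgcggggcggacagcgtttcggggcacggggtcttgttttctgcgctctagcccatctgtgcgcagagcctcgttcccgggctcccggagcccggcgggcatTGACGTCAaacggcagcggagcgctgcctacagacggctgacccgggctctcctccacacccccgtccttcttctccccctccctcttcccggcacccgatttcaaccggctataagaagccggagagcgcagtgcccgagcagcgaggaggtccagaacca
Vip: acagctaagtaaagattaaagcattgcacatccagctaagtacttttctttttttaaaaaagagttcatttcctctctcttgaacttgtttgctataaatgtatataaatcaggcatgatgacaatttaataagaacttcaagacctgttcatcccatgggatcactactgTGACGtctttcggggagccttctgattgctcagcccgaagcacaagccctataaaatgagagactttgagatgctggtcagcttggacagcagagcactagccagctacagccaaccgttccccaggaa
Cck: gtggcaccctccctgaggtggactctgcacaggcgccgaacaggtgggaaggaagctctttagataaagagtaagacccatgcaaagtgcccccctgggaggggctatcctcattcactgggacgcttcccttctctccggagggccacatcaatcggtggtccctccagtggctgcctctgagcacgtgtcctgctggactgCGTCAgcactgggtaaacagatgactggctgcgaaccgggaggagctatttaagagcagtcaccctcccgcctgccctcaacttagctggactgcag

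The other genes of the peptide system were counted from lists of known genes. Of 48 other precursors and granins listed, 22 were in the table and 1 was called, Chga, which rose with DEX averaged over phenotypes, where 4.31% of all genes were called. Chga encodes chromogranin A, a core protein of dense core vesicles, and had 23065 ± 3796 (SD, n = 3), 21963 ± 3169 (n = 2) and 21939 ± 2154 (n = 3) normalized counts in control, PS and AS saline and 28330 ± 1462 (n = 3), 26599 ± 2318 (n = 3) and 26825 ± 876 (n = 2) in the DEX groups. The log2 difference was 0.29 ± 0.08 (limma, adjusted p = 0.0761), a call lost in most fits with 1 library left out, such as con_dex_122 (adjusted p = 0.153). Without dep1_sal_68 it was 0.24 (limma, adjusted p = 0.284), without con_sal_114 as well 0.21, and over all alternatives the adjusted p ran from 0.00321 to 0.304.

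Of 22 processing and vesicle genes 21 were in the table and 1 was called, again with DEX averaged over phenotypes and beside the same 4.31% of all genes. It was Furin, a convertase of the secretory pathway, which rose by 0.29 ± 0.08 on the log2 scale (limma, adjusted p = 0.0928, 0.028 to 0.273 over the alternatives). By phenotype the rise was 0.51 ± 0.15 in AS, 0.25 ± 0.13 in control and 0.10 ± 0.15 in PS mice, and none of these was called. The averaged call was lost in most fits with 1 library left out, such as con_dex_122 (limma, adjusted p = 0.188). With DEX averaged over phenotypes the median log2 difference was 0.03 for the 21 processing and vesicle genes. It was -0.05 for the other precursors and 0.00 for all genes. Of 24 receptors of the 10 peptides 16 were in the table, and limma called 0 in any of the 13 comparisons, where 0% to 4.31% of all genes were called. At an unadjusted p under 0.05 there were 0 to 5 of the 16, beside 1.91% to 14% of all genes. The 5 were in PS against control under saline (7.67% of all genes), and without dep1_sal_68 there were 0. None of the 3 lists had a called gene in another comparison (limma).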

How the data were processed

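PolyA RNA of the DRN was sequenced in 16 libraries, grouped by their titles. Per the labels, the authors trimmed reads with fastp 0.20.1, aligned them with HISAT2 2.2.1 to mm10 (GRCm38) and counted genes with featureCounts (Subread 2.0, GENCODE annotation). The signal that was deposited is a table of normalized counts from DESeq2 1.36.0, in which a single factor per library divides all counts. Further deposited tables with comparisons by the authors hold fold changes and p-values and were not used. The libraries came from a strand-specific kit, but strand use in the counting is not given in the sources used here. The stated filter was 10 reads in each sample, yet 973 of 14504 genes fell below it in some library; no further filter was applied. Multiplying by the size factors gave whole reads (within 0.1 read) for 100.0% of values, which set the depth, 38207157 to 62447298 reads.

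The main test was limma 3.58.1 (R 4.3.3) on log2(normalized count + 1), fitting 6 group means to the 16 libraries, eBayes with trend and Benjamini-Hochberg adjustment over 14504 genes; genes with an adjusted p under 0.1 were called, the threshold of the study. Fold changes on this scale understate the change of low genes. edgeR 4.0.16 and DESeq2 1.42.0 were run on the recovered reads as alternatives, beside other pseudocounts, filters, scalings, covariates and leaving out each library. Permutation tests of correlations were two-sided with 100000 permutations and ignore the groups. Recovery was tested on simulated data. Coordinates and lengths come from the GENCODE vM21 annotation. A gene may be named if it is a precursor of the list, a called gene of the fixed pathway lists, a serotonin, GABA or dopamine marker, or among the 3 genes most correlated with a precursor; genes of the pathway lists named under other observations and the libraries set apart were chosen after their values were seen. The precursors and the lists were chosen with earlier results of these data known. Nothing states that libraries came from pooled animals, and p-values measure the spread between these samples.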

Additional observations from a re-analysis of the deposited data

Results flagged for a closer look

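Penk lay on opposite sides in 2 phenotypes: every DEX library was below every saline library in control mice and above every saline library in AS mice. The test of the difference, the DEX effect in AS minus that in control mice, gave 0.69 ± 0.31 on the log2 scale (limma, adjusted p = 0.941), so the difference between the phenotypes did not pass the threshold. It was 0.68 without dep1_sal_68 and con_sal_114. No group has 4 or more libraries, so no library was tested as far from the rest of its group.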

How the results depend on the processing

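The count of precursors called was 0 in all 13 comparisons, and it stayed 0 in 382 of 389 recomputed counts. It became 1 for DEX in control mice when only the groups compared were fitted (Sst) and with DESeq2 (Trh), and 1 with library weights for DEX in PS mice and for DEX averaged over phenotypes (Npy in both). With each library left out in turn it ran from 0 to 2 for DEX in PS mice, for DEX averaged over phenotypes and for PS against control under saline, the 2 being Cck and Pdyn without dep1_sal_62, and was 0 throughout in the other comparisons. Leaving out dep1_sal_68 and con_sal_114 together, or adding the dopamine score as a covariate, both chosen after seeing the data, gave no call. Of 3922 recomputed differences of single genes 3717 kept their sign, 10 passed the threshold anew and 96 moved by more than the residual SD of the gene. Chga and Furin were each refitted in 29 alternatives for DEX averaged over phenotypes, and together they lost their calls in 30 of these. No paired analysis was possible because the numbers in the library labels differ between the groups. Groups of 2 or 3 libraries and residual SDs up to 1.87 limit what these comparisons can detect, and the cause of each change was not tested.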

Other observations

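Other peptide genes that were not called differed widely in their spread. Npw, which encodes neuropeptide W, had a residual SD of 1.04 on the log2 scale and ran from 7.57 normalized counts in dep1_sal_68 to 238 in dep1_dex_34. Grp, the gastrin-releasing peptide gene, ran from 37.8 in dep1_sal_68 to 472 in con_sal_114. The granins were far steadier: Scg2 lay between 62517 and 91291 normalized counts and Scg3, with a residual SD of 0.12, between 8507 and 12028. The median residual SD was 0.35 over the 22 other precursors, 0.34 over the 16 receptors and 0.20 over the 21 processing genes.

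Among the receptors Tacr1, the substance P receptor gene, had the widest spread (residual SD 0.75), with 238 normalized counts in con_sal_114 and 1066 in dep1_dex_6. The other end was held by Npy1r at 0.16. In dep1_sal_68 7 of the 16 receptors were at their lowest of the 16 libraries, beside 6 of the 21 processing genes and 4 of the 22 other precursors. Cpe, the carboxypeptidase nearest to Tac1, was lowest there at 41724 and highest in con_sal_114 at 89736.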
